A study of Equus caballus with 15 samples.

Results

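The 10 genes NLRP1, NLRP3, NLRP12, NLRC4, AIM2, PYCARD, CASP1, GSDMD, NOD1 and NOD2 encode the sensors, the adaptor, the protease and the pore former of the inflammasome, together with related receptors of the NLR family. They were taken by gene symbol from the 16932 genes with deposited values, and 10 of 10 symbols were found there. The choice named NLRP12 as differing with MSC-CM and with ACS, so every difference of NLRP12, which shares those libraries, is given as a description with no test, and counts of called genes cover the other 9. Horse macrophages were grown from blood mononuclear cells of 2 horses with M-CSF at 30 ng/ml for 5 days, and polyadenylated RNA of 15 libraries was sequenced. Untreated macrophages received no cytokine or product. IL-1ß macrophages received recombinant equine IL-1ß at 10 ng/ml for 24 h. The other 3 groups received the same IL-1ß together with an orthobiologic therapy (OT) at 25% of the culture medium for 24 h. The OT was conditioned medium of bone marrow mesenchymal stromal cells (MSC-CM), lysate of platelet rich plasma (PRP lysate) or autologous conditioned serum (ACS). ACS is a serum of incubated blood meant to be enriched in cytokine antagonists, and the paper gives no characterization of the ACS and PRP lysate used. The methods describe washing and 24 h of further culture after treatment, whereas the sample labels place RNA collection right after washing.

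Each group had 3 libraries. Those of an OT came from 3 product donors, and per the methods the same 3 horses gave all OTs, so libraries of different OTs are not independent of each other. The labels give each ACS library a name of its own where the other groups carry numbers, and how the names match the numbers is not stated. In contrast, the study describes the untreated and IL-1ß libraries as technical replicates. Which macrophage donor gave which library is not stated in the labels, so the spread within a group, and every p-value set against it, may be technical in part.

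NLR proteins are receptors in the cytosol that answer to microbial products or to disturbance of the cell. NLRP3, NLRP1 and NLRC4, and the DNA sensor AIM2, can gather the adaptor ASC, the product of PYCARD, and caspase-1, the product of CASP1, into an inflammasome. Active caspase-1 matures pro-IL-1ß and pro-IL-18 and cleaves gasdermin D, the product of GSDMD, whose fragment opens pores in the plasma membrane. NOD1 and NOD2 build no inflammasome in this sense but recognize fragments of bacterial peptidoglycan and signal through RIPK2 to NF-κB. NLRP12 is expressed mostly in myeloid cells and is known both as a brake on NF-κB signaling and as an inflammasome component in some infections. Assembly and cleavage take place on proteins, which RNA libraries do not measure.

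Values are counts of reads per gene scaled to the total of the library (CPM), as the authors made them. The libraries held 28410735 to 47894069 reads on genes, so that 1 read stood for 0.0209 to 0.0352 CPM, and intervals and floors derived from reads cover counting error only. IL-1ß replicate 3 and PRP lysate replicate 1 stood apart, with median correlations to the other libraries of 0.943 and 0.969 where the remaining 13 libraries had 0.985 to 0.990. Values without them are given beside several of the results. Of 12 macrophage markers 11 were listed. CD68, MRC1 and CSF1R were abundant, whereas CD14 lay at only 1.38 to 4.32 CPM and ITGAM at 1.1 to 3.47 CPM. The summed macrophage markers were at 4200 to 6325 CPM untreated, 3445 to 6416 with IL-1ß, 4329 to 5306 in the MSC-CM group, 2039 to 4237 in the PRP lysate group and 3655 to 4908 in the ACS group. All 6 T cell markers were listed and summed to 595 to 885 CPM untreated, 831 to 1652 with IL-1ß, 1170 to 1259 in the MSC-CM group, 747 to 1696 in the PRP lysate group and 719 to 921 in the ACS group. In such bulk libraries fewer cells of a type and less RNA per cell cannot be told apart, and the part of cell mixture in the values of the 10 genes was not tested.

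A gene was called when, in the limma fit of log2(CPM + 1), its Benjamini-Hochberg adjusted p-value was 0.05 or less and it differed 2-fold or more in either direction. Genes averaging 1 CPM or more across the 15 libraries were tested, which held for all 10 genes and for 11628 in all. NLRP12 and AIM2 passed that filter narrowly, with means of 1.82 and 1.41 CPM, and without the IL-1ß libraries their means were 1.03 and 1.01 CPM. Log2 fold changes are differences on the log2(CPM + 1) scale, which understates the change of genes with few CPM.

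The inflammasome and NLR genes stood at very different CPM, from GSDMD with 96.9 to 331 CPM to NLRP12 with 0 to 5.68 CPM. Since the CPM are not per transcript length, the order between genes has no meaning as a level of transcripts, and only groups of libraries were compared. Of the 9 genes other than NLRP12, limma called 0 with IL-1ß alone against untreated macrophages, beside 0.292% of all genes tested. Against IL-1ß it called 1 of the 9 with PRP lysate, beside 3.09% of all genes, namely PYCARD, which was lower and lost the call in 4 of 6 fits without 1 library. With MSC-CM and ACS limma called 0 of the 9, beside 0% and 2.21% of all genes, while DESeq2 called PYCARD and GSDMD with ACS, beside 3.39%. NLRP12 lay below its IL-1ß libraries in all libraries of the other groups.

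**Figure D1:**
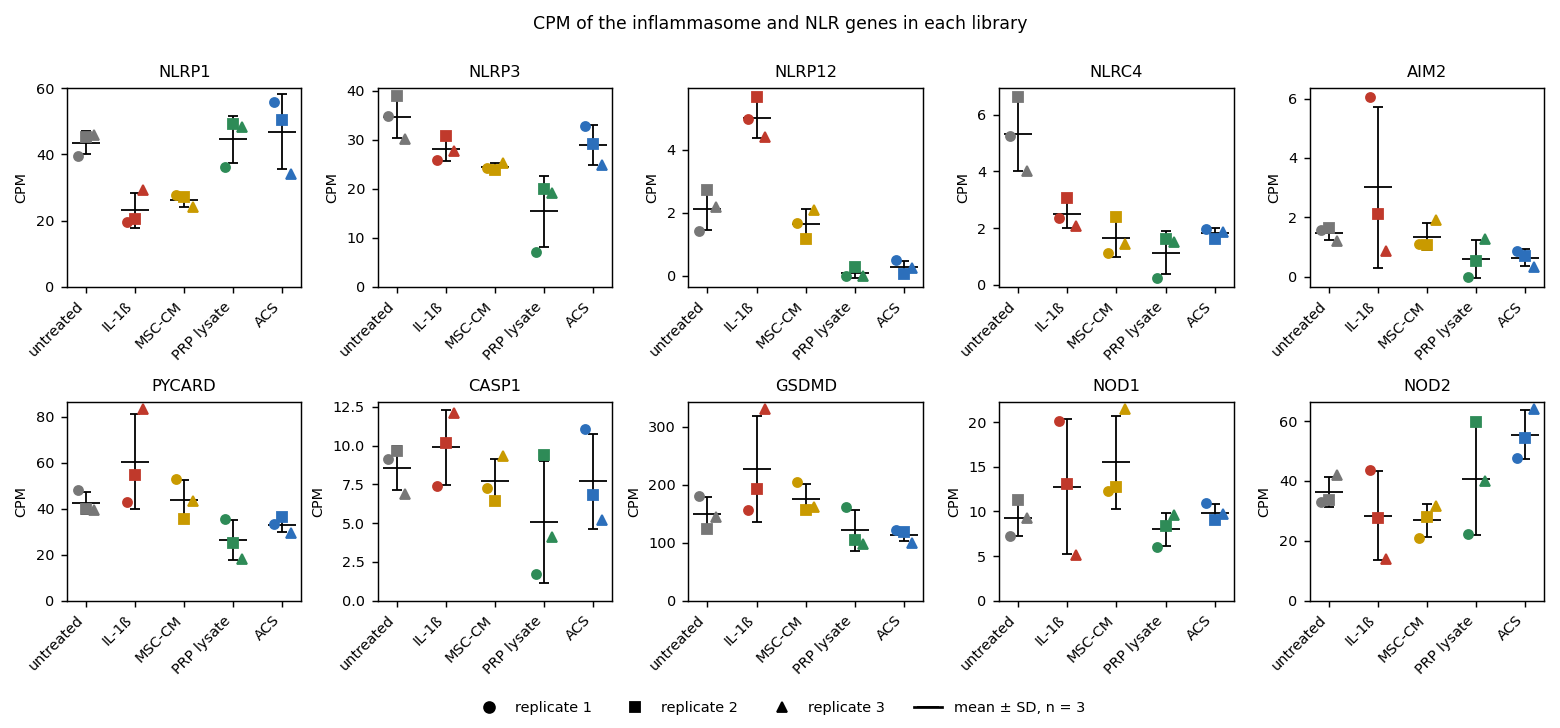
CPM (linear axis, 1 panel per gene) of the 10 genes in the 15 libraries, with symbol shape for the replicate and lines for the mean ± SD (n = 3). The 3 IL-1ß libraries of NLRP12 lie at 4.39 to 5.68 CPM, above all other libraries, and the PRP lysate and ACS libraries lie between 0 and 0.491 CPM.

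NLRP12 (ENSECAG00000017662, EquCab3.0 chromosome 10, 23266238 to 23296935) had the largest ratio between group means of the 10 genes. It was at 1.43, 2.72 and 2.19 CPM in the untreated libraries 1 to 3 and at 4.98, 5.68 and 4.39 CPM with IL-1ß. With MSC-CM it was at 1.68, 1.16 and 2.08 CPM, and with ACS at 0.491, 0.0527 and 0.23 CPM. With PRP lysate it was listed at 0 CPM in replicates 1 and 3 and at 0.287 CPM in replicate 2. All IL-1ß libraries thus lay above every library of the other groups, the untreated and MSC-CM libraries overlapped, and the PRP lysate and ACS libraries overlapped each other below both. In recovered reads the groups held 226 untreated, 507 with IL-1ß, 208 under MSC-CM, 12 under PRP lysate and 31 under ACS. A count of 0 allows up to 3 reads, or 0.0806 CPM in PRP lysate replicate 1 and 0.106 CPM in replicate 3.

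Between IL-1ß (5.02 ± 0.645 CPM, SD, n = 3) and untreated macrophages (2.11 ± 0.648 CPM) NLRP12 differed by 2.37-fold, a log2 fold change of 0.97 (standard error 0.219). With MSC-CM the mean was 1.64 ± 0.464 CPM, 3.06-fold below IL-1ß, a log2 fold change of -1.20 (standard error 0.219) that lay between -1.32 and -1.06 with each of the 6 libraries left out. With ACS the mean was 0.258 ± 0.22 CPM, 19.5-fold below IL-1ß, a ratio that rests on the 31 reads of the ACS group. Its log2 fold change was -2.27 (standard error 0.219), within -2.40 to -2.15 when single libraries were omitted. On recovered reads, with no 1 CPM added, the value with ACS was -4.37 in edgeR and -4.40 in DESeq2.

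PRP lysate, which shares the IL-1ß libraries with those comparisons, left NLRP12 at 0.0956 ± 0.166 CPM (SD, n = 3). The log2 fold change of NLRP12 against IL-1ß was -2.46 (standard error 0.219), and -2.58 to -2.38 with single libraries left out. On recovered reads it was -5.62 in edgeR and -5.71 in DESeq2. The ratio of means was 52.4 and rests on the 12 reads of 1 PRP lysate library. For PRP lysate against MSC-CM the log2 fold change was -1.26 (standard error 0.219). ACS lay below MSC-CM with a log2 fold change of -1.07 (standard error 0.219), and of -1.21 to -0.95 with 1 library left out. ACS and PRP lysate differed in NLRP12 by 0.19 (standard error 0.219).

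Of the 10 neutrophil markers 5 were listed, and they did not share one order of groups. MPO, the myeloperoxidase of granulocytes, had means of 0.959 CPM untreated, 2.02 with IL-1ß, 0.775 under MSC-CM, 0.0159 under PRP lysate and 0.126 under ACS. S100A12, a calcium-binding protein of granulocytes and monocytes, had means of 0.822, 1.51, 0.515, 0.163 and 0.0796 CPM in the same order. ELANE, the neutrophil elastase, had means of 0.137, 0.0471, 0.0738, 0.128 and 0.16 CPM, and LTF, the lactoferrin of granules, 0.112, 0.242, 0.0156, 0.107 and 0.0482 CPM. The summed list was made up almost wholly of CSF3R, the receptor for G-CSF, and went from 311 to 393 CPM with IL-1ß to 486 to 546 with PRP lysate and 530 to 759 with ACS. Of the 11 macrophage markers, 6 had a higher mean with IL-1ß than untreated, 10 a lower mean with PRP lysate than with IL-1ß, and 9 a lower mean with ACS than with IL-1ß. CD163, a scavenger receptor for hemoglobin, had means of 243 CPM untreated, 563 with IL-1ß, 481 under MSC-CM, 11.4 under PRP lysate and 64.6 under ACS. CD68, a lysosomal glycoprotein, ran otherwise, at 2019, 1630, 1430, 1660 and 1631 CPM, and the M-CSF receptor gene CSF1R was at 468, 376, 374, 182 and 315 CPM. Of 6 B cell markers 5 were listed, and their sum was at 15.9 to 23.3 CPM untreated, 26.6 to 48.2 with IL-1ß, 23.9 to 30.9 under MSC-CM, 12.2 to 29.8 under PRP lysate and 13.9 to 20 under ACS. The IL-1ß libraries thus lay above the untreated and ACS libraries without overlap in this sum as in NLRP12. CD79A, a subunit of the B cell receptor, was the most abundant of the 5, with means of 9.63, 22.1, 14.7, 10.2 and 8.28 CPM. The 6 NK cell markers summed to means of 314, 426, 388, 619 and 383 CPM, and the 4 listed platelet markers, of 6, to 4.28, 13.1, 7.26, 29 and 14.1 CPM. Of these the chemokine gene PPBP held 1.97, 11.5, 4.97, 27.2 and 11.6 CPM. Whether these markers have a part in the NLRP12 values was not tested.

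NLRP1 (ENSECAG00000008523, chromosome 11, 49407090 to 49457559), a sensor that is released from inhibition when its N-terminal part is degraded, ran the other way. It was at 39.6, 45.1 and 45.9 CPM untreated and at 19.7, 20.5 and 29.2 CPM with IL-1ß, where the highest value was that of the library that stood apart. MSC-CM libraries were at 27.6, 27.2 and 24 CPM. Those with PRP lysate were at 36.1, 49.1 and 48.2 CPM, and those with ACS at 55.8, 50.4 and 34.1 CPM. The IL-1ß and MSC-CM libraries overlapped and lay below all libraries of the untreated, PRP lysate and ACS groups, which overlapped among themselves.

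Untreated macrophages (43.5 ± 3.43 CPM, SD, n = 3) held 1.88-fold more NLRP1 than IL-1ß macrophages (23.1 ± 5.29 CPM), with a log2 fold change of -0.90 for IL-1ß against untreated (standard error 0.205, limma, adjusted p = 0.0832). Without IL-1ß replicate 3 this was -1.08 and was called (limma, adjusted p = 0.0434). Against IL-1ß the log2 fold change of NLRP1 was 0.92 with PRP lysate (44.5 ± 7.24 CPM, limma, adjusted p = 0.0193) and 0.98 with ACS (46.8 ± 11.3 CPM, limma, adjusted p = 0.021). Both passed the adjusted p-value and missed the fold threshold by less than 0.1 on the log2 scale, and both were called without IL-1ß replicate 3, at 1.10 and 1.15. PRP lysate was also called without its replicate 1 (1.06) and ACS without its replicate 3 (1.18). The adjusted p-value was lost with the 2 groups fitted alone (limma, adjusted p = 0.297 for PRP lysate and 0.235 for ACS), in edgeR (adjusted p = 0.0908 and 0.084) and, for PRP lysate, with the replicate block (limma, adjusted p = 0.0515). It was also lost without IL-1ß replicate 1 for PRP lysate (limma, adjusted p = 0.055), without IL-1ß replicate 2 for both (limma, adjusted p = 0.0787 and 0.077), without PRP lysate replicate 2 or 3 (limma, adjusted p = 0.0815 and 0.0832) and without ACS replicate 1 or 2 (limma, adjusted p = 0.0878 and 0.105). It was kept in DESeq2 for PRP lysate and ACS (adjusted p = 0.0403 and 0.027), and without both libraries that stood apart (limma, adjusted p = 0.00129 and 0.00201). With MSC-CM (26.2 ± 1.96 CPM) the log2 fold change was 0.19 (limma, adjusted p = 0.737). Against MSC-CM, NLRP1 differed by 0.73 with PRP lysate and 0.78 with ACS, and neither was called (limma, adjusted p = 0.0681 and 0.0791). Over the alternatives these adjusted p-values ranged from 0.00477 to 0.263 for PRP lysate and from 0.00611 to 0.317 for ACS. Within the span of NLRP1 lies a second gene, ENSECAG00000021116, at 18.8 to 50.2 CPM, whose group means were 25.3 CPM untreated, 35.2 with IL-1ß, 32.1 under MSC-CM, 29.1 under PRP lysate and 21.6 under ACS. Since the strand setting of the counting is not given in the sources used here, reads of the pair may not be fully separated.

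NLRP3 (ENSECAG00000015382, chromosome 14, 93679608 to 93709577), the sensor that responds to loss of cellular potassium and other disturbances, had its lowest libraries with PRP lysate. It was at 34.8, 38.9 and 30.2 CPM untreated, at 25.9, 30.8 and 27.7 CPM with IL-1ß and at 24.2, 23.8 and 25.3 CPM with MSC-CM. ACS libraries were at 32.9, 29.2 and 24.8 CPM. PRP lysate libraries were at 7.12, 20 and 19.1 CPM, with the lowest value in the library that stood apart, and lay below all others. Against IL-1ß (28.1 ± 2.47 CPM, SD, n = 3) the log2 fold change with PRP lysate (15.4 ± 7.2 CPM) was -0.95 and not called (standard error 0.287, limma, adjusted p = 0.085). It was -0.50 without PRP lysate replicate 1, and it was called with RLE size factors at -1.04 (limma, adjusted p = 0.0472) and with TMM factors at -1.03 (limma, adjusted p = 0.0494). ACS was higher in NLRP3 than PRP lysate by 0.98, which was not called (limma, adjusted p = 0.433) and was 0.53 without PRP lysate replicate 1. The log2 fold change of NLRP3 was -0.29 for IL-1ß against untreated, -0.19 for MSC-CM and 0.03 for ACS against IL-1ß, and the last turned to -0.09 with RLE size factors.

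NLRC4 (ENSECAG00000019830, chromosome 15, 65480810 to 65525217), which signals for bacterial flagellin and secretion system proteins bound by NAIP, was scarce. It was at 5.26, 6.64 and 4.03 CPM untreated, above every other library. IL-1ß libraries were at 2.36, 3.05 and 2.07 CPM and MSC-CM libraries at 1.11, 2.39 and 1.43 CPM. PRP lysate libraries were at 0.242, 1.63 and 1.51 CPM, the lowest again in replicate 1, and ACS libraries at 1.96, 1.61 and 1.86 CPM. The untreated mean (5.31 ± 1.31 CPM, SD, n = 3) was 2.13-fold that with IL-1ß (2.5 ± 0.502 CPM), a log2 fold change of -0.84 for IL-1ß against untreated that was not called (standard error 0.287, limma, adjusted p = 0.239). Against IL-1ß NLRC4 gave log2 fold changes of -0.42 for MSC-CM, -0.78 for PRP lysate and -0.31 for ACS, none of them called (limma, adjusted p = 0.705, 0.158 and 0.477).

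AIM2 (ENSECAG00000014480, chromosome 5, 34653263 to 34767754), the sensor of double-stranded DNA in the cytosol, had its widest spread within the IL-1ß group, at 6.06, 2.12 and 0.864 CPM. It was at 1.56, 1.65 and 1.2 CPM untreated and at 1.09, 1.08 and 1.9 CPM with MSC-CM. With PRP lysate it was at 0, 0.526 and 1.27 CPM, where the count of 0 in replicate 1 allows up to 0.0806 CPM, and with ACS at 0.873, 0.711 and 0.313 CPM. Against IL-1ß (3.01 ± 2.71 CPM, SD, n = 3) the log2 fold changes were -1.19 with PRP lysate and -1.10 with ACS, without a call (limma, adjusted p = 0.13 and 0.168). Leaving out each library moved the value with PRP lysate between -1.63 and -0.67, and the comparison of IL-1ß with untreated between -0.03 and 0.93. With ACS the value ran from -1.54, without IL-1ß replicate 3, to -0.58, without IL-1ß replicate 1, and it was called without both libraries that stood apart (-1.54, limma, adjusted p = 0.0136). AIM2 was called with PRP lysate without IL-1ß replicate 3, at -1.63 (limma, adjusted p = 0.0199). Part of AIM2 overlaps ENSECAG00000014696, at 10.6 to 84.9 CPM, so that its few reads are uncertain in the same way as those of NLRP1.

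PYCARD (ENSECAG00000010166, chromosome 13, 19721505 to 19722831), the adaptor that links sensor and caspase-1, was at 48, 39.8 and 39.6 CPM untreated and at 43, 54.8 and 83.3 CPM with IL-1ß. It was at 52.7, 35.3 and 43.4 CPM with MSC-CM, at 35.7, 25.2 and 18.3 CPM with PRP lysate and at 33.4, 36.2 and 29.6 CPM with ACS. All PRP lysate and ACS libraries lay below all untreated and IL-1ß libraries, and the value of IL-1ß replicate 3 was the highest of the 15. PYCARD fell by 1.16 on the log2 scale with PRP lysate (26.4 ± 8.75 against 60.4 ± 20.7 CPM, SD, n = 3, standard error 0.26, limma, adjusted p = 0.0204), where the ratio of means was 2.28. The call of PYCARD held in 2 of 6 fits that left out a library. It was lost without IL-1ß replicate 2 (-1.20, limma, adjusted p = 0.0558) and replicate 3 (-0.90, limma, adjusted p = 0.048), and without PRP lysate replicate 2 (-1.15, limma, adjusted p = 0.0666) and replicate 3 (-0.93, limma, adjusted p = 0.095). It was also lost with the 2 groups fitted alone (limma, adjusted p = 0.352) and with the replicate block (limma, adjusted p = 0.11). The deviations of same-numbered IL-1ß and PRP lysate libraries from their group means correlated at -0.765, 0.474 and -0.703, so the block is no paired test of them. Without both libraries that stood apart the log2 fold change of PYCARD with PRP lysate was -1.14 and called (limma, adjusted p = 0.0037). With ACS (33 ± 3.3 CPM) the log2 fold change was -0.80 and not called (limma, adjusted p = 0.119), and it was -1.01 and called without IL-1ß replicate 1 (limma, adjusted p = 0.0395). With MSC-CM (43.8 ± 8.72 CPM) it was -0.42, and for IL-1ß against untreated it was 0.45 (limma, adjusted p = 0.705 and 0.474).

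CASP1 (ENSECAG00000024367, chromosome 7, 15083039 to 15096681), the protease of the complex, was at 9.12, 9.64 and 6.91 CPM untreated and at 7.37, 10.2 and 12.1 CPM with IL-1ß. It was at 7.29, 6.45 and 9.34 CPM with MSC-CM, at 1.75, 9.42 and 4.08 CPM with PRP lysate and at 11.1, 6.8 and 5.18 CPM with ACS. All 5 groups overlapped. Its largest log2 fold change, -1.03 with PRP lysate against IL-1ß (standard error 0.398, limma, adjusted p = 0.187), was -0.56 without PRP lysate replicate 1. Without PRP lysate replicate 2 it was -1.52 and called (limma, adjusted p = 0.0291).

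GSDMD (ENSECAG00000015005, chromosome 9, 84383838 to 84388345), whose cleaved product forms the pore, was at 180, 124 and 145 CPM untreated and at 156, 193 and 331 CPM with IL-1ß. It was at 205, 157 and 162 CPM with MSC-CM, at 161, 105 and 96.9 CPM with PRP lysate and at 122, 119 and 100 CPM with ACS. All ACS libraries lay below all libraries of the untreated, IL-1ß and MSC-CM groups. Against IL-1ß (227 ± 92 CPM, SD, n = 3) the log2 fold changes were -0.92 with ACS (114 ± 11.8 CPM, limma, adjusted p = 0.0774) and -0.86 with PRP lysate (121 ± 35.1 CPM, limma, adjusted p = 0.0851), and neither was called. The size of the GSDMD difference depended on IL-1ß replicate 3, without which the log2 fold change with ACS was -0.61 (limma, adjusted p = 0.215). Without both libraries that stood apart, GSDMD passed the adjusted p-value but not the fold threshold with ACS (-0.61, limma, adjusted p = 0.0472) and PRP lysate (-0.78, limma, adjusted p = 0.017). It was called with ACS when IL-1ß replicate 1 was left out, at -1.15 (limma, adjusted p = 0.0255), by DESeq2 with both products (adjusted p = 0.0185 for ACS and 0.0431 for PRP lysate), and with PRP lysate without IL-1ß replicate 1, at -1.10, or PRP lysate replicate 1, at -1.09 (limma, adjusted p = 0.0314 and 0.0295).

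**Figure D2:**
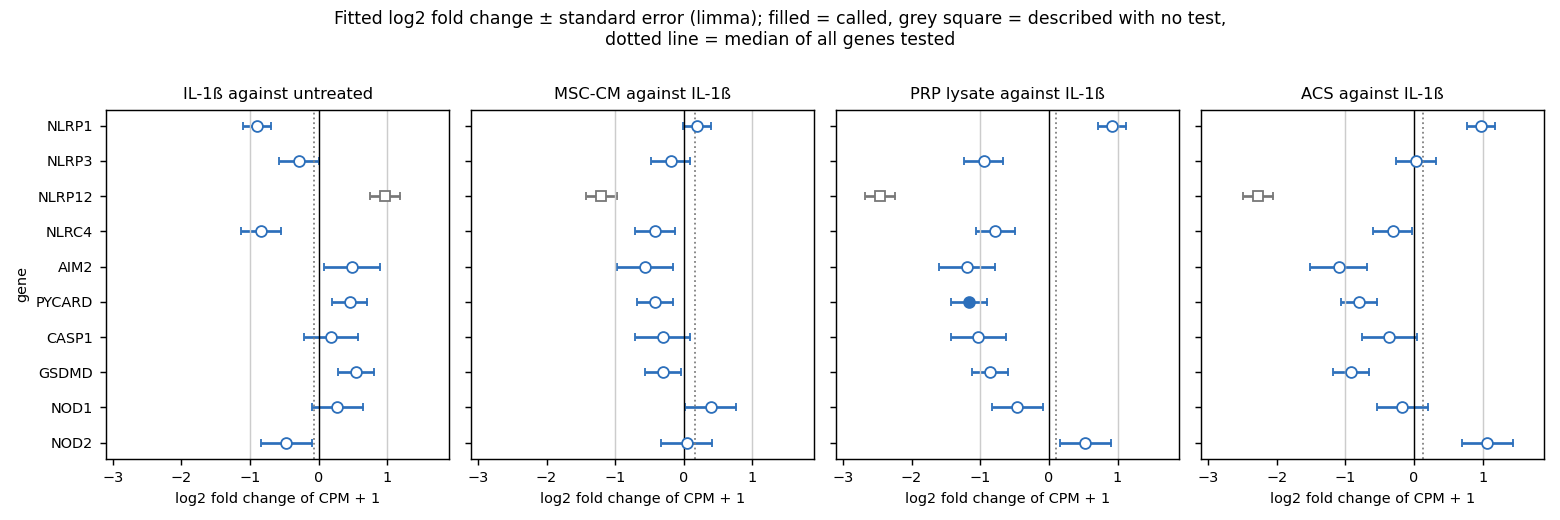
Log2 fold change of CPM + 1 with its standard error (limma, horizontal axis) for each of the 10 genes in 4 comparisons, with filled points for called genes and a dotted line at the median of all 11628 genes. The filled point is PYCARD (-1.16) with PRP lysate, grey squares mark NLRP12 (0.97, -1.20, -2.46 and -2.27 from left to right), which is described with no test, and NLRP1 lies at 0.92 with PRP lysate and 0.98 with ACS.

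The peptidoglycan receptors NOD1 and NOD2 were not called by limma in any of the 7 comparisons, and their IL-1ß libraries were spread widely. NOD2 (ENSECAG00000017005, chromosome 3, 3689734 to 3724276), which binds muramyl dipeptide, was at 33.1, 33.7 and 42 CPM untreated and at 43.5, 27.6 and 14 CPM with IL-1ß, the lowest in replicate 3. It was at 20.9, 27.9 and 31.5 CPM with MSC-CM, at 22.2, 59.7 and 40 CPM with PRP lysate and at 47.7, 54.5 and 64 CPM with ACS. Every ACS library lay above all untreated, IL-1ß and MSC-CM libraries. The log2 fold change of NOD2 with ACS (55.4 ± 8.22 CPM, SD, n = 3) against IL-1ß (28.4 ± 14.8 CPM) was 1.07 (standard error 0.375, limma, adjusted p = 0.148). It was 0.65 without IL-1ß replicate 3, and 1.44 and called without IL-1ß replicate 1 (limma, adjusted p = 0.0355). Against MSC-CM (26.8 ± 5.37 CPM), a comparison whose means leave the IL-1ß libraries aside, it was 1.03 (limma, adjusted p = 0.218). This was called when both libraries that stood apart were left out of the fit (1.03, limma, adjusted p = 0.00647) and over the alternatives had adjusted p-values from 0.00644 to 0.569. DESeq2 called it as well, with a log2 fold change of 1.10 (adjusted p = 0.0375).

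NOD1 (ENSECAG00000013825, chromosome 4, 61153893 to 61191003), the receptor for peptidoglycan fragments with diaminopimelic acid, was at 7.23, 11.3 and 9.32 CPM untreated and at 20.2, 13.1 and 5.08 CPM with IL-1ß. It was at 12.3, 12.7 and 21.5 CPM with MSC-CM, at 5.97, 8.32 and 9.64 CPM with PRP lysate and at 10.9, 9.03 and 9.67 CPM with ACS. All MSC-CM libraries lay above all libraries of the untreated, PRP lysate and ACS groups. Its largest log2 fold change was -0.86 for PRP lysate against MSC-CM, which was not called (standard error 0.374, limma, adjusted p = 0.298). Against IL-1ß, NOD1 gave 0.39 for MSC-CM, -0.46 for PRP lysate and -0.17 for ACS (limma, adjusted p = 0.718, 0.576 and 0.768). These values moved with the IL-1ß libraries. Without IL-1ß replicate 3, the library that stood apart, they were -0.11, -0.97 and -0.67, and without IL-1ß replicate 1 they were 0.79, -0.07 and 0.23, so the sign turned for MSC-CM and for ACS.

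Between IL-1ß and untreated macrophages, 0 of the 9 genes other than NLRP12 were called by limma, edgeR or DESeq2, where limma called 0.292% of all genes tested. An unadjusted p-value under 0.05 was found for 2 of the 9, beside 13% of all genes. The libraries of the groups did not overlap in NLRP1 and NLRC4, or 2 of the 9, beside 16.2% of all genes tested. The median log2 fold change of the 9 genes was 0.18, and that of all genes was -0.07.

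With MSC-CM against IL-1ß, 0 of the 9 genes other than NLRP12 were called by limma, edgeR or DESeq2. Over all genes limma called 0%, edgeR called 0 and DESeq2 called 2 genes. Of the 9, 0 had an unadjusted p-value under 0.05 beside 5.6% of all genes, and 0 passed this together with the fold threshold beside 0.361%. The groups did not overlap in 1 of the 9, NLRP3, beside 8.79% of all genes. The median was -0.31 for the 9 genes and 0.16 for all genes, with 6 of the 9 negative. Against IL-1ß the median of all genes was also above 0 with PRP lysate (0.11) and ACS (0.13), so each log2 fold change is to be read relative to these values.

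With PRP lysate against IL-1ß, 1 of the 9 genes, PYCARD, was called by limma beside 3.09% of all genes, and 2 of the 9, NLRP1 and PYCARD, passed the adjusted p-value alone beside 4.94%. An unadjusted p-value under 0.05 was found for 7 of the 9, beside 17.5% of all genes. DESeq2 called PYCARD and GSDMD of the 9, beside 4.04% of all genes. The groups did not overlap in 4 of the 9, NLRP1, NLRP3, NLRC4 and PYCARD, of which NLRP1 was higher with PRP lysate, beside 15% of all genes. The median log2 fold change of the 9 genes was -0.86, with 7 of the 9 negative. Without the 2 libraries that stood apart, 3 of the 9 (NLRP1, AIM2 and PYCARD) were called beside 4.41% of all genes.

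With ACS against IL-1ß, 0 of the 9 genes other than NLRP12 were called by limma beside 2.21% of all genes, and 5 of the 9 had an unadjusted p-value under 0.05 beside 20.5%. Of the 9, edgeR called 0 and DESeq2 called PYCARD and GSDMD, beside 3.39% of all genes. NLRP1 alone of the 9 passed the adjusted p-value without the fold threshold, beside 3.45% of all genes. The groups did not overlap in 5 of the 9, with NLRP1 and NOD2 higher and NLRC4, PYCARD and GSDMD lower, beside 26.2% of all genes. The median log2 fold change of the 9 genes was -0.31, with 6 of the 9 negative. These 3 comparisons share the IL-1ß libraries. Compared directly, PRP lysate and MSC-CM had a call in 0 of the 9 genes by limma, edgeR or DESeq2, beside 2.61% of all genes by limma, and in 0 with the replicate block, beside 1.47%. An unadjusted p-value under 0.05 was found there for 4 of the 9, beside 14.5% of all genes. Between ACS and MSC-CM 0 of the 9 genes other than NLRP12 were called by limma, beside 1.23% of all genes, with 3 of the 9 at an unadjusted p-value under 0.05 beside 13.5%. Of the 9, edgeR called 0 and DESeq2 called NOD2, beside 1.72% of all genes. ACS against PRP lysate called 0 of the 9 by limma, edgeR or DESeq2 (0.0946% of all genes by limma), and 1 of the 9, NLRP3, had an unadjusted p-value under 0.05 beside 5.19% of all genes.

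**Figure D3:**
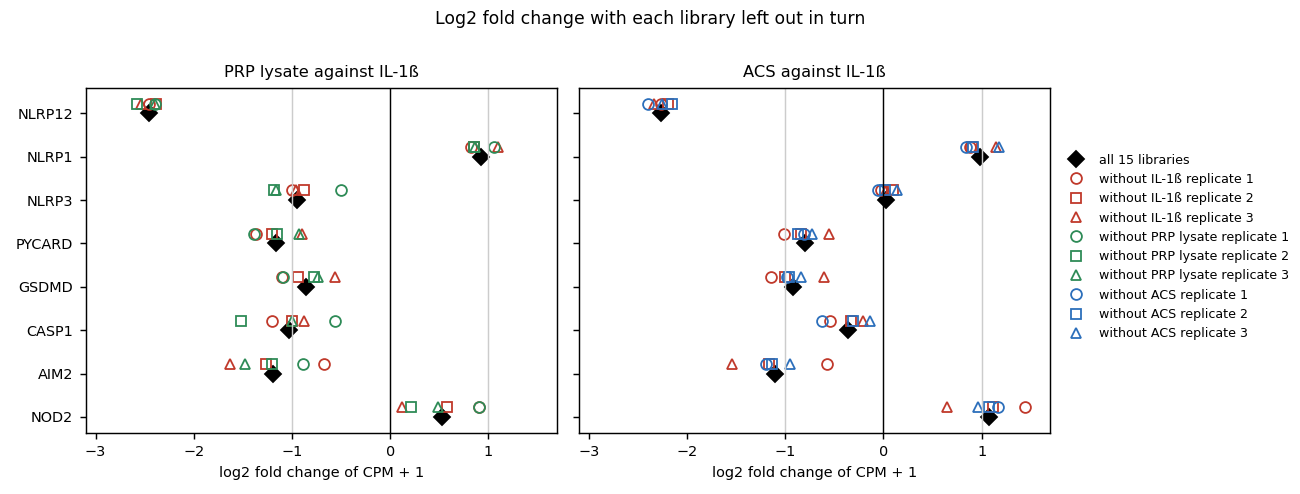
Log2 fold change of CPM + 1 (horizontal axis) for 8 of the genes with all 15 libraries (black) and with each IL-1ß or product library left out (open symbols). NLRP12, described with no test, lies between -2.58 and -2.38 with PRP lysate and between -2.40 and -2.15 with ACS. Its values near 0 CPM can move little on this scale, so these narrow ranges are no measure of steadiness. NOD2 with ACS runs from 0.65 to 1.44.

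The other genes of the pathway were read from a list of 68, of which 50 were found and 44 were tested. Called genes of this list numbered 1 for IL-1ß against untreated, and, against IL-1ß, 0 for MSC-CM, 3 for PRP lysate and 1 for ACS. Of all genes 0.292%, 0%, 3.09% and 2.21% were called in the same order. The median log2 fold changes of the list were -0.25, 0.19, 0.18 and 0.30, beside -0.07, 0.16, 0.11 and 0.13 for all genes. TXNIP, which binds thioredoxin and can activate NLRP3, fell by 1.01 on the log2 scale with IL-1ß (77.4 ± 9.34 against 158 ± 27.9 CPM, SD, n = 3, limma, adjusted p = 0.0348), and lost the call in each of 6 fits without 1 library and when the 2 groups were fitted alone (limma, adjusted p = 0.472). With MSC-CM 0 of 44 genes were called, by edgeR and DESeq2 as well, and 4 had an unadjusted p-value under 0.05, beside 5.6% of all genes.

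Of the 4 other caspase and pore-forming genes tested, 2 fell with PRP lysate against IL-1ß. GSDME, the gasdermin cleaved by caspase-3, was at 79.1, 66.3 and 48.1 CPM with IL-1ß and at 6.29, 18 and 13.5 CPM with PRP lysate, and fell by 2.35 on the log2 scale (limma, adjusted p = 0.000849), called in 6 of 6 fits without 1 library but not when the 2 groups were fitted alone (limma, adjusted p = 0.0867). GSDME also fell by 2.50 on the log2 scale with PRP lysate against MSC-CM (limma, adjusted p = 0.000673). NINJ1, which ruptures the membrane of dying cells, was at 98.5, 139 and 191 CPM with IL-1ß and at 65.7, 69.2 and 51 CPM with PRP lysate, and fell by 1.15 on the log2 scale (limma, adjusted p = 0.00871), called in 5 of 6 fits without 1 library. ZBP1, a sensor of Z-form nucleic acids, fell by 1.37 on the log2 scale (36.5 ± 14.5 against 99.3 ± 50 CPM, limma, adjusted p = 0.0214) and kept the call in 2 of 6 fits without 1 library. Both calls were lost when the 2 groups were fitted alone (limma, adjusted p = 0.221 for NINJ1 and 0.391 for ZBP1). The fall was not particular to PRP lysate. With ACS, GSDME was at 31, 25.5 and 27.9 CPM, NINJ1 at 78.6, 69.8 and 70.5 CPM and ZBP1 at 40, 36.5 and 39.9 CPM. All of these lay below the IL-1ß libraries of the same gene. The log2 fold changes with ACS against IL-1ß were -1.14, -0.91 and -1.22 in the same order, and none was called by limma. For PRP lysate against MSC-CM, 4 of the 44 list genes were called, beside 2.61% of all genes. Beside GSDME these were ZBP1 (-1.22), the ATP-gated channel gene P2RX7 (-1.33) and IL18BP (1.10), the secreted antagonist of IL-18 (limma, adjusted p = 0.0452, 0.0382 and 0.00807). ZBP1 and P2RX7 kept this call in 1 of 6 fits without 1 library, and IL18BP in 5 of 6. With the replicate block, GSDME was the only list gene called (limma, adjusted p = 0.0201), beside 1.47% of all genes. ZBP1, P2RX7 and IL18BP were not called with it (limma, adjusted p = 0.197, 0.163 and 0.0596). The block also spanned the untreated and IL-1ß libraries and is no paired test of PRP lysate and MSC-CM alone.

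IL1R2, the decoy receptor that takes up IL-1 without signaling, rose with ACS. It was at 43.7, 37.4 and 31.9 CPM with IL-1ß and at 135, 97.9 and 85 CPM with ACS. Its log2 fold change was 1.45 (adjusted p = 0.00575 in limma, standard error 0.237), and it was called in 6 of 6 fits without 1 library but not when the 2 groups were fitted alone (limma, adjusted p = 0.0653). Against MSC-CM it was 1.71 (limma, adjusted p = 0.00298), the only one of 44 list genes called there, beside 1.23% of all genes, and ACS against PRP lysate called 0 list genes with limma, edgeR and DESeq2, with 6 at an unadjusted p-value under 0.05, beside 5.19% of all genes.

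Of the cytokines that caspase-1 matures, IL1B was at 8.96, 8.19 and 12.6 CPM untreated and at 6.43, 6.61 and 10.1 CPM with MSC-CM, where all libraries of both groups lay below those with IL-1ß. Its log2 fold change was 1.20 for IL-1ß against untreated and -1.53 for MSC-CM against IL-1ß, and neither was called (limma, adjusted p = 0.458 and 0.705). IL1B was at 6.53, 76.4 and 67.9 CPM with PRP lysate, so that replicate 1 stood far below the others, and at 32.7, 21 and 19.5 CPM with IL-1ß. Its log2 fold change with PRP lysate was 0.47 (limma, adjusted p = 0.75), and 1.42 without both libraries that stood apart (limma, adjusted p = 0.014). IL18 was at 8.81, 12.9 and 17.6 CPM with IL-1ß and at 4.94, 3.71 and 3.97 CPM with ACS, a log2 fold change of -1.40 that was not called (limma, adjusted p = 0.076). With PRP lysate IL18 was at 12, 5.36 and 2.92 CPM and with MSC-CM at 11.3, 7.38 and 12.3 CPM. The log2 fold changes of IL18 against IL-1ß were -0.99 and -0.29 there, without a call. IL1A, which needs no caspase-1, had log2 fold changes of -0.10, 0.59 and 0.80 with MSC-CM, PRP lysate and ACS against IL-1ß, with none called. RIPK2, the kinase below NOD1 and NOD2, was at 26.2 to 56.6 CPM in all 15 libraries and its log2 fold changes against IL-1ß were 0.19, -0.07 and 0.15 in the same order. The transactivators of MHC genes, NLRC5 and CIITA, had log2 fold changes of 0.22, 0.20 and 0.18, and of 0.05, 0.34 and 0.52, again without a call. NLRX1, the mitochondrial member of the family, had 0.18, -0.22 and -0.30, and CASP8, the initiator caspase, 0.43, 0.07 and 0.31. MEFV, which encodes pyrin, lay at 0 to 0.639 CPM and was not tested.

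**Figure D4:**
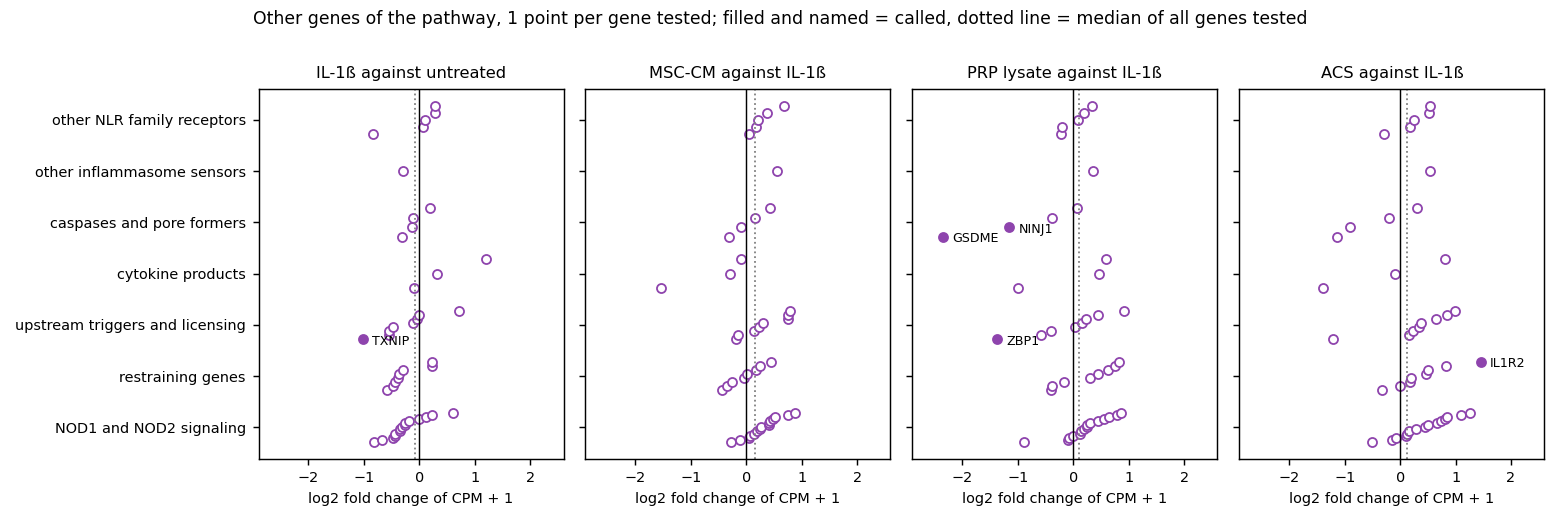
Log2 fold change of CPM + 1 (horizontal axis) of the 44 other pathway genes tested, 1 point per gene, grouped by role, with called genes filled and named and a dotted line at the median of all genes. The called genes are TXNIP (-1.01) with IL-1ß, GSDME (-2.35), ZBP1 (-1.37) and NINJ1 (-1.15) with PRP lysate, and IL1R2 (1.45) with ACS.

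The genes most like NLRP12 over the 15 libraries, by Pearson r of log2(CPM + 1), were TMEM175 (0.95), SLC66A1 (0.94), SLC8B1 (0.92), ENSECAG00000038794 (0.92) and ENSECAG00000038866 (0.92). ENSECAG00000038794 had group means of 21.3 CPM untreated, 37.7 with IL-1ß, 24.1 under MSC-CM, 0.871 under PRP lysate and 2 under ACS. TMEM175, a lysosomal channel, kept a narrower range, from 37.4 CPM with IL-1ß to 24.1 CPM with PRP lysate. For NLRP3 they were BTK (0.92), CCDC170 (0.91), ENSECAG00000000505 (0.91), IFIT3 (0.91) and SNX24 (0.90). BTK, a kinase of B cells and myeloid cells, had group means of 43.9 CPM untreated, 38.3 with IL-1ß, 35 under MSC-CM, 23.7 under PRP lysate and 32 under ACS. These correlations describe the same 15 libraries, which share groups and the 2 libraries that stood apart.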

How the data were processed

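Polyadenylated RNA of 15 libraries in 5 groups was sequenced. Per the methods the authors trimmed reads with cutadapt, aligned them to EquCab3.0 with STAR 2.7.3, counted them per gene with HTSeq on Ensembl models in Partek Flow, and deposited CPM for 16932 genes. The strand setting is not given in the sources used here. All 15 columns were matched by their headers. The listed genes sum to 982495 to 991421 CPM per library.

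The 11628 genes averaging 1 CPM or more were fitted with limma 3.58.1 in R 4.3.3 on log2(CPM + 1) with an intensity trend, all 15 libraries, 5 groups and no block. Benjamini-Hochberg adjustment ran within each of 7 comparisons. Whole reads were recovered from the CPM steps for 99.5% of values (tolerance 0.05 reads). On them edgeR 4.0.16, which called 27, 0, 388 and 242 genes for IL-1ß against untreated and MSC-CM, PRP lysate and ACS against IL-1ß, and DESeq2 1.42.0, which called 167, 2, 684 and 574, were run. Also tried were a pseudocount of 0.1, all genes unfiltered, RLE and TMM factors, only the groups compared, a replicate block, other thresholds and leaving out each library. Leaving out both libraries that stood apart was added after seeing the data. The fits were tested on simulated data.

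NLRP12, named by the choice of genes, was left out of counts of calls. The 10 genes, the pathway list and the markers were chosen with earlier results of these data known. All 10 genes, 9 fixed pathway genes, up to 5 called pathway genes per comparison and the 5 genes most like NLRP12 and NLRP3 are named. Deviations from the group means of same-numbered libraries correlated over 0.1 in all 3 pairs of MSC-CM with PRP lysate (r of 0.635, 0.255 and 0.419). Untreated libraries, which received no product, gave r of 0.556, 0.457 and -0.319 with MSC-CM and of 0.321, 0.59 and -0.44 with PRP lysate. Since values as high arose there without a product donor, the correlations cannot decide whether MSC-CM and PRP lysate are paired by number. Per the methods the same 3 horses gave all OTs, but the labels do not say that a number marks a horse, and those of ACS carry none, so comparisons of ACS with other OTs were fitted without the pairing. Over the 4 numbered groups 11 of 18 pairs correlated over 0.1 (r from -0.775 to 0.635), so no pairing was taken for the other groups.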

Additional observations from a re-analysis of the deposited data

How the results depend on the processing

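The number called among the 9 genes other than NLRP12 depended on the setting, and the share of all genes called is given beside it. With IL-1ß against untreated it was 0 (0.292%), 0 to 1 with 1 library left out (0.043% to 0.301%) and 1 without both libraries that stood apart (0.783%), an alternative chosen after seeing the data. With MSC-CM it was 0 under all alternatives (0% to 0.361%). With PRP lysate it was 1 (3.09%). It was 2 with RLE size factors (3.38%), 2 with TMM factors (3.35%) and 2 with DESeq2 (4.04%). It was 0 when only the 2 groups were fitted (0.482%) and 0 with the replicate block (1.69%), which cost PYCARD its call (limma, adjusted p = 0.11). It was 0 to 3 with 1 library left out (2.36% to 4.03%), 3 without both libraries (4.41%), 2 without the fold threshold (4.94%) and 3 with the fold threshold at an unadjusted p-value (4.68%). With ACS it was 0 (2.21%). It was 1 with a pseudocount of 0.1 (2.08%), 2 with DESeq2 (3.39%), 0 to 3 with 1 library left out (0.886% to 6.06%), 2 without both libraries (2.63%), 1 without the fold threshold (3.45%) and 2 with the fold threshold at an unadjusted p-value (5.45%). With PRP lysate against MSC-CM it was 0 under all alternatives (1.44% to 4.83%). With ACS against MSC-CM it was 0 (1.23%). It was 1 with DESeq2 (1.72%), 1 when only the 2 groups were fitted (2.78%), 1 without both libraries (2.79%) and 1 with the fold threshold at an unadjusted p-value (2.63%). The cause of these changes was not tested. The replicate block covered the 12 libraries whose labels carry a number and changed no other call of the 9 genes. It thus also spanned the untreated and IL-1ß libraries, which did not run together with same-numbered OT libraries throughout. A call or adjusted p-value kept or lost with the block is therefore not the outcome of a paired test of 2 groups. For PRP lysate against MSC-CM the block called 171 genes in all beside 304 without it. With ACS no paired analysis was possible because its labels carry no numbers. Of the 32 log2 fold changes of at least 0.5 in size in these genes, 467 values under alternatives gave 0 reversals (smaller ones did turn, NOD1 among them), 435 on the same side of the threshold, 26 newly called and 6 no longer called. NLRP12 is left out of these values, since the choice of genes named it as differing. The called genes of the pathway list ranged from 0 to 6 with PRP lysate (0.482% to 4.41% of all genes) and from 0 to 7 with ACS (0.413% to 6.06%). NLRP12 and AIM2 had few reads, and 3 libraries a group of partly technical replicates limit every test.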
